A study of Caenorhabditis elegans with 2 samples.

Results

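The genes described here are the 6 vitellogenin genes of Caenorhabditis elegans, vit-1 to vit-6, and rme-2, the gene of the yolk receptor. They were chosen by name, with earlier results of these data known, and all 7 were found among the 19973 nuclear protein-coding genes of the annotation. Sites of HMG-20, which has a high-mobility-group box, were mapped by chromatin immunoprecipitation sequencing in strain RW12240. Its allele st12240 is a CRISPR insertion on chromosome I that gives hmg-20::TY1::EGFP::3xFLAG. Chromatin came from whole young adults of 64 hours, grown from starved L1 larvae after bleaching, and an anti-GFP antibody was used. There was 1 group with 2 biological replicates and no other genotype or treatment, so no comparison between conditions was made and no test was run. The immunoprecipitated chromatin of all tissues was pooled, so a region cannot be assigned to the intestine, the germline or another tissue. A tagged protein was profiled, and no untagged strain is analysed here.

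Vitellogenins are the lipid-carrying yolk proteins of egg-laying animals. In the worm they are made in the intestine of the adult hermaphrodite, secreted into the body cavity and taken up by growing oocytes through RME-2, a receptor of the low-density-lipoprotein receptor family. The vit genes are among the most strongly transcribed genes of the adult intestine, and their promoters carry short repeated elements and sites of GATA factors such as ELT-2, the main intestinal regulator. By contrast, rme-2 is transcribed in the germline.

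Every region whose summit lay from 1000 bp upstream of a 5' end to the 3' end of a member was listed from the authors' ranked list, which holds 59116 regions of both replicates, 59096 of them on nuclear chromosomes. This gave 63 regions, each 256 bp wide. The score of a region is its scaled irreproducible discovery rate (IDR), a measure of how well its rank recurs between replicates. A score of 830, the lowest in the authors' conservative list, corresponds to an IDR of 0.01. The signal is the authors' peak height for both replicates pooled, on a scale that the files do not state. The number of reads behind a region is unknown, since the lists give no read totals. A region between 1000 bp upstream and 200 bp downstream of a 5' end of the gene was called a promoter region, and any other a gene-body region.

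Of the 63 regions, 3 were in the conservative list. They lay at the start of vit-2, upstream of rme-2 and late in the coding sequence of vit-6. The 101 bases centred on their summits are shown in the direction of each gene, on WBcel235 (ce11), because these are the sites past the threshold. None of these windows held a match to the 4 motifs searched here, described with the promoters further on, so no base is in capitals.
vit-2 (chrX:5101121-5101221, plus strand): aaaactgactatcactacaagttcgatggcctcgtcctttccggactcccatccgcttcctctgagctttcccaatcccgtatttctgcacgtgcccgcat
rme-2 (chrIV:5469844-5469944, plus strand): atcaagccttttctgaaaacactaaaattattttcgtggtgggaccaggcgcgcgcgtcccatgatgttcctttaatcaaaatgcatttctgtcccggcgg
vit-6 (chrIV:8265266-8265366, plus strand): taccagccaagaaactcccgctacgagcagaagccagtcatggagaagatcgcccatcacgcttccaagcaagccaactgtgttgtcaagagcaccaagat

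The strongest region was at vit-2 (WBGene00006926; chromosome X, 5101042 to 5106169, plus strand), which encodes a large yolk protein. Its summit stood 129 bp downstream of the 5' end, in coding sequence, and the region spanned 5101043 to 5101298. Replicate 1 had a signal of 35.04 there and replicate 2 a signal of 27.5, in each replicate's own ranked list. The replicate mean was 31.3 ± 5.30 (SD, n = 2), the pooled signal 63.2 and the score 951. It ranked 910 by pooled signal among the nuclear regions. The replicate 1 peak here was also matched to a region at 335 bp, whose replicate 2 signal was 11.3 and score 60.

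The rme-2 region (gene WBGene00004374; chromosome IV, 5470026 to 5473174, plus strand) had its summit at -132 bp from the 5' end and spanned 5469766 to 5470021. Replicate 1 had a signal of 35.4 and replicate 2 one of 31.9, with a mean of 33.7 ± 2.54 (SD, n = 2). Its pooled signal was 55.2 and its score 1000. The pooled signal lay below the median of the conservative list but above 97.8% of nuclear ranked regions.

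At vit-6 (WBGene00006930; chromosome IV, 8261157 to 8266459, plus strand), whose product is cleaved into the smaller yolk proteins, the conservative region lay inside the gene. Its summit was 4159 bp downstream of the 5' end, in coding sequence, and it spanned 8265188 to 8265443. Here replicate 2 was the higher of the pair, with a signal of 36.5 against 31.1 in replicate 1, and the mean was 33.8 ± 3.83 (SD, n = 2). Its pooled signal was 52.6 and its score 1000. The replicate means of the 3 regions differed by less than their SDs, so they have no order.

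All 3 lay below the median signal of the conservative list. Its 979 nuclear regions had a median pooled signal of 76.8, and 22.0% of them had a lower signal than the vit-2 region, 8.17% a lower one than the rme-2 region and 6.13% a lower one than the vit-6 region. The 3 were also the highest of the 63 regions in the lower of their replicate signals. This signal was 27.5 to 31.9, and no other region at the 7 genes exceeded 25.3 in its lower replicate. The list is chosen by how ranks recur in both replicates, so this is not independent of that choice.

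Counted by gene, 2 of the 7 members had a conservative summit in the promoter (28.6%), against 3.13% of all protein-coding genes. With gene bodies included, 3 of 7 did (42.9%), against 4.25% of all protein-coding genes, 4.10% of those on X and 6.59% of the 6432 genes whose window of gene and upstream sequence was at least 4000 bp long. Of the 5 vit genes on X, vit-1, vit-3, vit-4 and vit-5 had no conservative summit. These counts rest on single regions, and the members were chosen with earlier results of these data known. The shares are therefore a description and not an unbiased measure of enrichment. In replicate 1's own thresholded list 0 of the 7 genes had a summit (2.29% of all genes did), and in replicate 2's own list 1 did, vit-6 (2.06% of all genes). The other thresholded list of the series kept rme-2 and vit-6 but not vit-2, so that 1 of 7 had a promoter summit (3.13% of all genes) and 2 of 7 a summit anywhere in the window (4.33%). The vit-2 region is in the other ranked list too, with the same pooled signal of 63.2 but a score of 479.

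**Figure D1:**
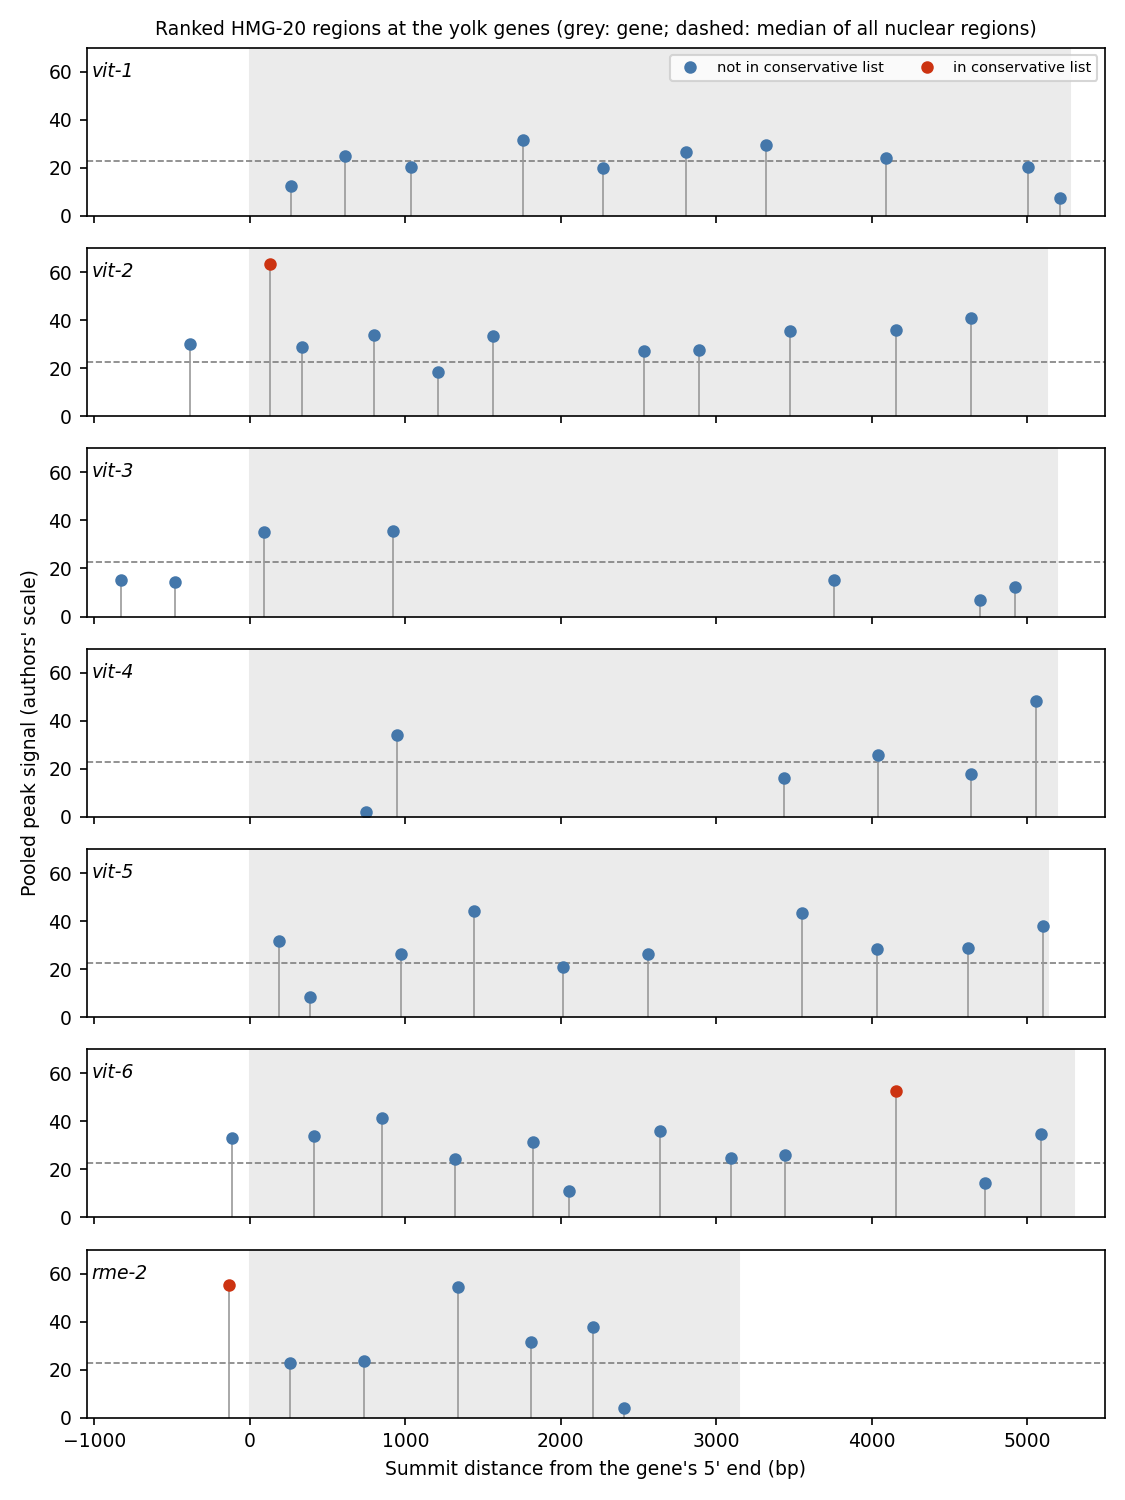
Pooled signal of each ranked region (vertical axis, authors' scale) against the distance of its summit from the gene's 5' end (horizontal axis, bp), 1 panel per gene. Grey bands are the genes, the dashed line is the median of all nuclear regions (22.7), and red points are the 3 regions of the conservative list, at vit-2, vit-6 and rme-2.

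The remaining regions were spread along the genes, as the plot of signal by gene shows, with pooled signals from 2.06 to 54.4. The highest of them, in rme-2, thus had a higher pooled signal than the conservative region of vit-6. Of the 63 regions, 9 lay in promoters and 54 in gene bodies. By position of the summit, 5 were upstream of the gene, 55 in exons and 3 in introns, and 53 were in coding sequence. Most of the searched sequence is itself coding, for example 4839 of 6128 bp at vit-2 and 2775 of 4149 bp at rme-2. These positions were not counted over all nuclear regions, so they show no preference for exons or coding sequence. The median pooled signal was 27.6, against 22.7 over all nuclear ranked regions, and 44 of the 63 were above that value. The share at the lowest score of 27 was 25.4%, against 44.9% of all nuclear regions, and the share in the conservative list was 4.76%, against 1.66%.

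A ranked summit of any score was found in the promoter of 5 of the 7 genes, against 54.6% of all protein-coding genes, and none was listed there for vit-1 or vit-4. With gene bodies included all 7 had one, against 74.6%. The rme-2 gene had a second promoter summit, at 259 bp from the first 5' end and -29 bp from another annotated one, with a pooled signal of 22.8. The 2 upstream summits of vit-3 lay inside the neighbouring gene T27A10.5, with pooled signals of 15.4 and 14.4. A summit at -112 bp of vit-6 had a pooled signal of 33.1 and a score of 54, with replicate signals of 7.42 and 24.7, over 2 times apart. It fell within K07H8.16, an ncRNA gene on the opposite strand. A summit at -387 bp of vit-2 also differed over 2 times between replicates, at 17.7 and 8.67. That summit and the conservative one of vit-2 both lie in the promoter window of the ncRNA gene C42D8.16 as well.

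At the 5' ends of the other vit genes the regions were weaker than at vit-2. The vit-3 gene (WBGene00006927; chromosome X, 3567355 to 3572549, minus strand) had a summit 89 bp downstream of its 5' end, with replicate signals of 17.4 and 16.2 and a score of 184. That summit is also inside T27A10.8, an ncRNA gene on the opposite strand. The vit-5 gene (WBGene00006929; chromosome X, 3403471 to 3408603, plus strand) had one 185 bp downstream, with replicate signals of 17.03 and 14.996 and a score of 157. Both replicates were thus lower at these summits than either replicate at vit-2. For vit-1 (WBGene00006925; chromosome X, 7727889 to 7733168, plus strand), the first summit stood 267 bp downstream, with replicate signals of 14.4 and 8.51 and the lowest score.

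The start of vit-2 has counterparts in its paralogs, found by aligning the genes. They are shown with the bases that differ from vit-2 in capitals, beside the vit-2 window printed above, since vit-2 alone had a conservative region there.
vit-1 (chrX:7727979-7728079, plus strand): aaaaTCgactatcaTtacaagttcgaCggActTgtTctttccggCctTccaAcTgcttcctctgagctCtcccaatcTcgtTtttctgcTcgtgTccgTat
vit-3 (chrX:3572362-3572462, minus strand): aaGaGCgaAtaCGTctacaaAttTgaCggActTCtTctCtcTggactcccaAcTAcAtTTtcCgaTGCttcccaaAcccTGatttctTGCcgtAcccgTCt
vit-5 (chrX:3403559-3403659, plus strand): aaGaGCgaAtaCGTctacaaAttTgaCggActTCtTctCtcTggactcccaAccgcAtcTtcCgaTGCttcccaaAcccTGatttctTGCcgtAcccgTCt
The vit-1 window matched vit-2 at 84 of 101 bases, vit-5 at 69 and vit-3 at 66, and the vit-4 window has the same letters as that of vit-3. A read lying wholly inside the window therefore cannot be assigned to either vit-3 or vit-4. All 5 windows are coding sequence. The nearest ranked summit was 127 bp from the middle of the window in vit-1, 48 bp away in vit-3, 47 bp away in vit-5 and 616 bp away in vit-4.

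Below the threshold, the highest scores were inside genes. The vit-4 gene (WBGene00006928; chromosome X, 3558769 to 3563965, minus strand) had a region 5059 bp downstream of its 5' end, near the 3' end, with a signal of 25.3 in replicate 1 and 26.0 in replicate 2. Its score of 679 corresponds to an IDR of 0.0231. A region of rme-2 in coding sequence, 1340 bp downstream of the 5' end, had a score of 625 (IDR 0.0311), with 31.6 in replicate 1 and 21.3 in replicate 2. These 2 and the 3 conservative regions made 5 of 63 with an IDR of 0.05 or less (7.94%), against 3.24% of nuclear regions. In vit-5 the highest score was 517, at 974 bp downstream, where the replicates were 23.1 and 23.4. The highest scores were 201 at vit-3 and 195 at vit-1, so these 2 genes held no region near the threshold.

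Ordered by their strongest region, the genes ran from vit-2 (pooled signal 63.2) through rme-2 (55.2), vit-6 (52.6), vit-4 (48.4), vit-5 (44.3) and vit-3 (35.6) to vit-1 (31.6). Pooled signals carry no error. The replicate values behind the 4 lowest were 25.6 ± 0.503 at vit-4, 28.1 ± 13.0 at vit-5, 17.7 ± 2.05 at vit-3 and 14.4 ± 6.15 at vit-1 (mean ± SD, n = 2). Neighbours in this order were within these SDs of each other, except vit-4 and vit-6, and for vit-5 and vit-3 the SD of vit-5 spans the difference.

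The ratio between replicate signals at the yolk genes is given beside that over all nuclear regions. At 10 of 63 regions (15.9%) the signals were over 2 times apart, against 13.3% of nuclear regions, and the median ratio of the higher to the lower was 1.40, against 1.37. The first replicate column of the ranked list was the higher at 32 regions and the second at 31. The values of the first column were found in replicate 1's own ranked list for 49 of the 63 regions, against 34785 of all 59116. Those of the second column were found in replicate 2's own list for 53, against 34117 of all 59116. At 14 of the 63 regions a replicate peak was also matched to a neighbouring region, so such neighbours are not separate measurements. How often this occurs over all regions was not counted. At vit-4, for example, regions 744 and 947 bp downstream share both replicate peaks (20.6 and 15.04) and a score of 189, while their pooled signals were 2.06 and 34.001.

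**Figure D2:**
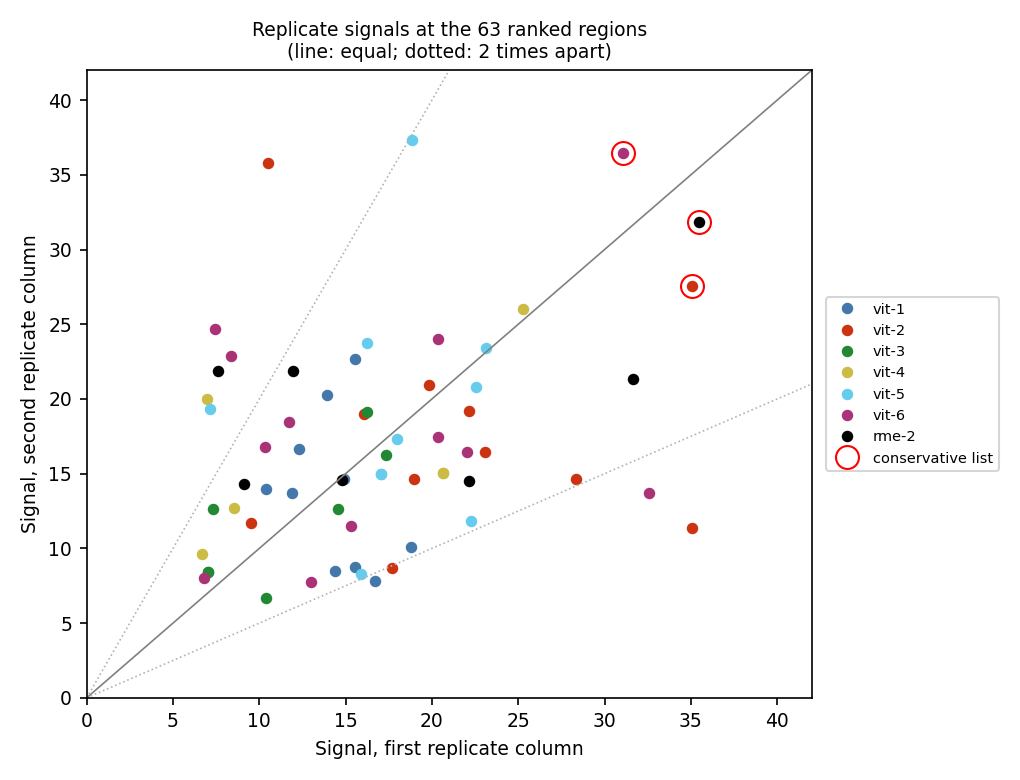
Signal of the 63 regions in the second replicate column (vertical axis) against the first (horizontal axis), both on the authors' scale and coloured by gene. The line marks equal values and dotted lines a ratio of 2. The 3 circled regions of the conservative list are the only ones with both signals above 25.3.

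Ranked summits were dense over 5 of the 7 genes. Counted per kb of gene and upstream sequence, vit-6 had 1.90 summits, vit-2 1.80, rme-2 1.69, vit-5 1.63 and vit-1 1.59, and each was above 97% of the 6432 genes with a window of at least 4000 bp, whose median was 0.631. The density was lower at vit-3 (1.13) and vit-4 (0.968), at the 85.7 and 77.3 percentiles of those genes. Base composition moved with this measure. The windows of the members had 41.9% to 46.5% G and C, and the 237 long genes with at least 41.9% had a median of 1.14 summits per kb and a 90th percentile of 1.70, while genes under 34% had a median of 0.296. Its part in the density at the yolk genes was not tested. Around the summits themselves, the 101 bp windows of the 63 regions had a median of 47.5% G and C, against 41.6% for all nuclear regions and 49.5% for the conservative ones.

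**Figure D3:**
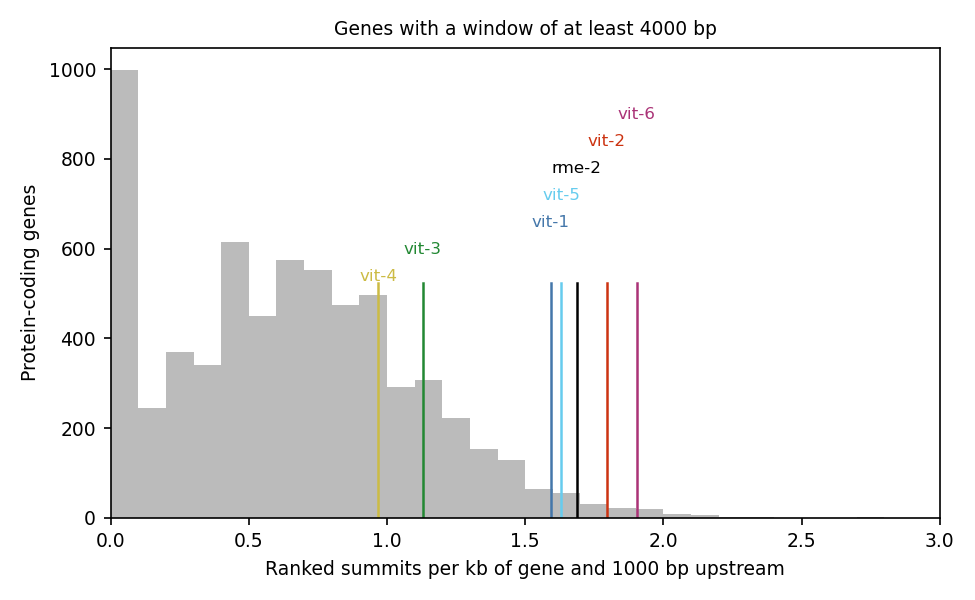
Number of protein-coding genes (vertical axis) by ranked summits per kb (horizontal axis), for the 6432 genes with a window of at least 4000 bp. Coloured lines mark the 7 members: vit-4 and vit-3 lie at 0.968 and 1.13, and the other 5 between 1.59 and 1.90.

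The vit genes are close copies, which limits what can be read from them. The coding sequences of vit-3 and vit-4 were 99.0% identical, with 48 differences over 4809 bp, and vit-5 was 97.7% identical to vit-3 and 97.8% to vit-4. The pair vit-1 and vit-2 was 93.8% identical, while vit-2 and vit-3 shared 67.8% and vit-6 55.3% to 57.2% with each of the others. Of the 50-base stretches starting in vit-4, 78.8% recur elsewhere in the genome, on either strand, as do 74.4% in vit-3, 48.6% in vit-5, 13.0% in vit-2 and 12.6% in vit-1. None recurred in vit-6 or rme-2, and at most 1% did in the 1000 bp upstream of any of the 7 genes. The vit-2 conservative region held no recurring 50-mer.

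In vit-3, vit-4 and vit-5 there were fewer summits per kb where the sequence recurs. In vit-3 and vit-4 together, 100 bp bins in which at least 50% of the 50-mers recur held 6 summits in 8700 bp, or 0.690 per kb. The remaining bins, which include the 1000 bp upstream of each gene, held 7 in 3692 bp, or 1.90 per kb. The whole window of vit-6 had the same density. Among the 7 summits, those 744 and 947 bp downstream in vit-4 share both replicate peaks, and the 2 upstream of vit-3 share a replicate 2 peak. Such neighbours are not separate measurements. In vit-5 the values were 1.25 and 1.88 per kb. In vit-1 the order was the other way, with 1 summit in 400 bp of recurring bins, or 2.50 per kb, against 1.53 in the rest. In vit-2 the recurring bins covered 300 bp and held 0 summits, against 1.89 per kb in the rest, and vit-6 and rme-2 had no such bins. The longest stretches in which every 50-mer recurs ran from 1702 to 3457 bp in vit-4, with 1 summit, and from 1722 to 2998 bp in vit-3, with none. The treatment of reads that match several places is not stated, and the part of repeated sequence in the low counts at vit-3 and vit-4 was not tested. A signal over the shared parts of vit-3, vit-4 and vit-5 cannot be assigned to one copy.

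**Figure D4:**
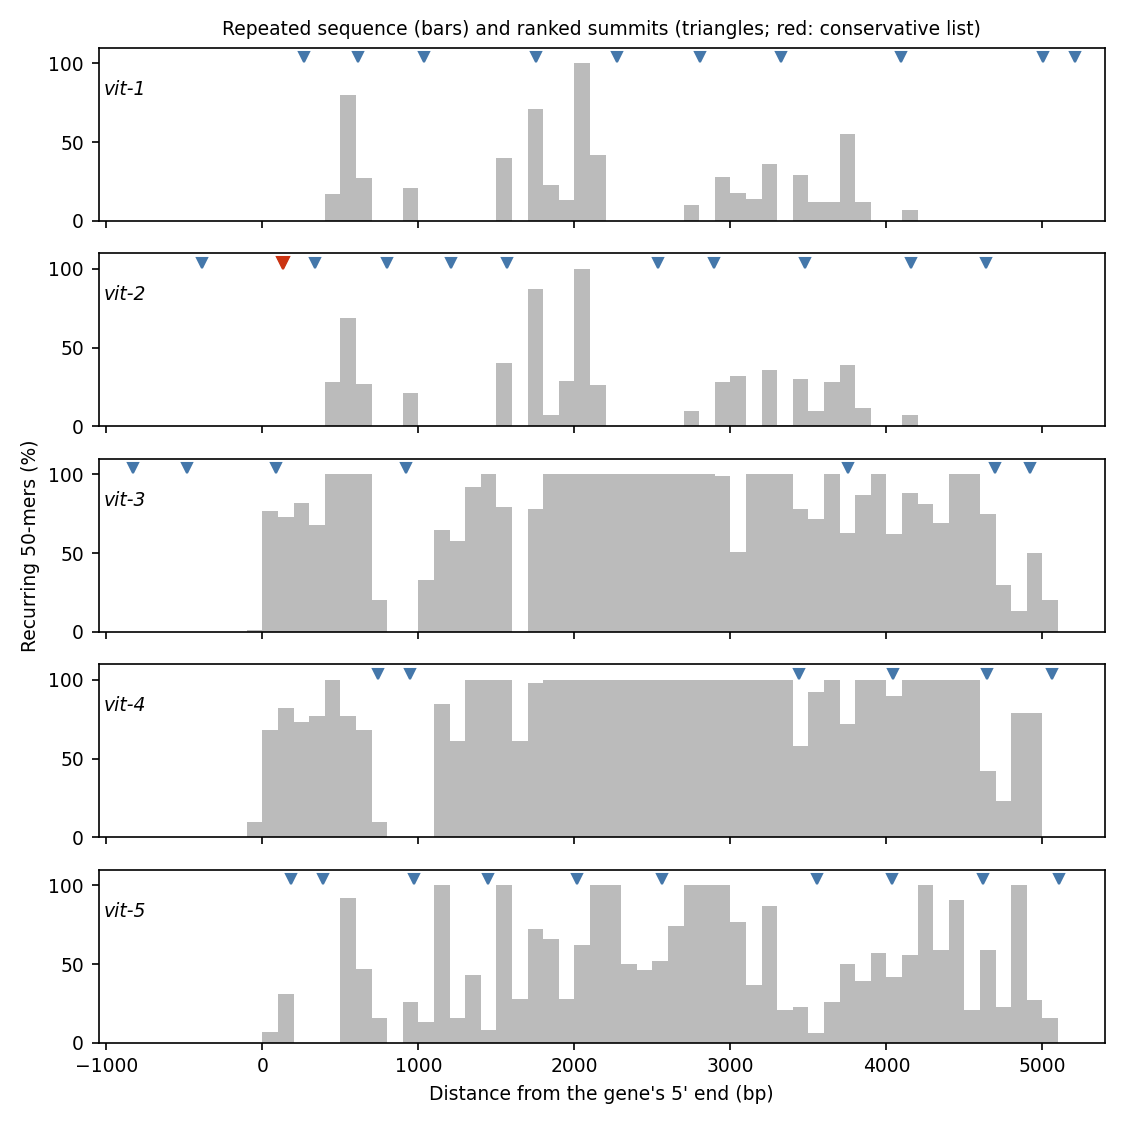
Share of 50-mers that recur elsewhere in the genome (vertical axis, %) in 100 bp bins by distance from the 5' end (horizontal axis, bp) in the 5 vit genes on X. Triangles mark ranked summits, the red one the conservative region of vit-2. No summit lies between 947 and 3437 bp in vit-4 or between 918 and 3757 bp in vit-3, where the longest recurring stretches are.

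The upstream sequence of the vit genes carries 2 short elements known from studies of vitellogenin promoters, TGTCAAT and CTGATAA, the latter a GATA-type site. Both strands were searched from 250 bp upstream to 50 bp downstream of each 5' end, for these, for TGATAA, which lies within CTGATAA, and for ATTGTT, a core sequence known to be bound by some high-mobility-group boxes. All 6 vit genes held TGTCAAT, against 5.77% of all protein-coding genes, and vit-1, vit-2, vit-4, vit-5 and vit-6 held CTGATAA, against 8.15%. These 2 elements were searched because they are known from vitellogenin promoters, so their presence there is not independent of that choice. TGATAA was found at all 6 vit genes, against 30.2%, and ATTGTT at vit-2 and vit-6, against 36.4%. The rme-2 window held none of them. The 150 bases before the 5' ends of vit-2, vit-4 and vit-6 are shown with the matches inside them in capitals, since these genes differ in whether a ranked summit stands nearby. Matches further upstream lie outside the printed bases, among them CTGATAA at -160 bp in vit-2 and TGTCAAT at -163 bp in vit-6.
vit-2 (chrX:5100892-5101041, plus strand): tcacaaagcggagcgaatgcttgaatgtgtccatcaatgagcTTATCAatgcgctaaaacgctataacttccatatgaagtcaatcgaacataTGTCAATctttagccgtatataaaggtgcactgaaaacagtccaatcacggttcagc
vit-4 (chrX:3563966-3564115, minus strand): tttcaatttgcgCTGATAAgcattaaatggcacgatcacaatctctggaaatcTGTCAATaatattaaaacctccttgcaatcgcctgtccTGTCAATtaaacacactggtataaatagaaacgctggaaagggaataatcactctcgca
vit-6 (chrIV:8261007-8261156, plus strand): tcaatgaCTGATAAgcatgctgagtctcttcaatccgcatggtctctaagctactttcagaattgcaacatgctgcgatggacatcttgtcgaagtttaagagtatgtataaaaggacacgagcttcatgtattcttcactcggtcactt
In vit-2 the TGTCAAT match begins at -57 bp from the 5' end, and in vit-4 matches begin at -97 and -59 bp. Among the ranked regions, 6 of 63 held TGTCAAT (9.52%), against 4.97% of the 59013 nuclear regions of the same width, and 3 held CTGATAA (4.76%), against 4.59%. TGATAA was in 9.52% of the 63, against 19.3%, and ATTGTT in 28.6%, against 24.6%. These matches are descriptions of the letters only.

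Other genes of yolk production and uptake were counted from lists of 41 genes, without a test. A conservative promoter summit was found at 3 of 41, against the 3.13% of all protein-coding genes. With gene bodies included, 5 of 41 had one, against 4.25% of all genes and 6.59% of those with a window of at least 4000 bp. The listed genes were not matched to other genes for window length, and the lists were chosen with earlier results of these data known. Among 16 regulators of yolk genes, rict-1, which encodes a subunit of the TOR kinase complex that controls fat and yolk, had a promoter summit at -551 bp, where the replicates averaged 29.8 ± 2.75 (SD, n = 2). The homeobox gene ceh-60 and the zinc finger gene lin-29, a developmental timing factor, had a summit in the gene body, with replicate signals of 37.4 ± 2.98 and 35.5 ± 14.1 (SD, n = 2). No conservative summit was found at the GATA factor genes elt-2 and elt-7, at unc-62, mab-3, pqm-1 or daf-16, or at the other regulators listed.

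Of 8 genes for secretion and lipid loading, 2 had a conservative promoter summit, against 3.13% of all protein-coding genes. Both are for parts of the coat that carries proteins out of the endoplasmic reticulum. The GTPase gene sar-1 had a summit at -358 bp with 43.3 ± 8.27, and sec-24.1 one at -133 bp with 29.1 ± 2.73 (replicate mean ± SD, n = 2). The other listed genes, sec-23, sec-31, npp-20, tfg-1, sec-16A.1 and dsc-4, had no conservative summit. The dsc-4 gene is for the microsomal transfer protein, which loads lipid onto lipoproteins. Of 15 genes for yolk uptake and endocytic traffic, among them rme-1, rme-8, the clathrin heavy chain gene chc-1 and rab-5, 0 had a conservative summit, against 4.25% of all protein-coding genes. Ranked regions of any score were found at 14 of the 15, against 74.6% of all protein-coding genes. The median of their strongest signals was 41.8, against 34.1 over the long genes. Not all of the 15 have windows that long, so the 2 medians are of unlike sets. The same median was 43.0 for the regulators, 36.9 for the secretion genes and 35.7 for the receptor relatives. Neither of the 2 relatives of the receptor, lrp-1 and lrp-2, had a conservative summit, against 4.25% of all protein-coding genes. They held 17 and 13 ranked regions in long windows, or 0.811 and 0.659 per kb, against a median of 0.631 over the long genes.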

How the data were processed

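Peak lists of 2 replicates of 1 group were analysed. The lists hold regions on ce11 ranked by IDR, per the file headers and labels. Signal is the authors' deposited peak height, the score is the authors' scaled IDR, and the deposited −log10 column holds the IDR. No source used here names the aligner or caller, and read depth is unknown. The ranked list of both replicates was the main list, and values named by replicate come from that replicate's own ranked list. Summits were assigned with Ensembl release 115 (WBcel235), in which 0 nuclear regions lay outside the chromosomes. Replicate values are mean ± SD over 2 replicates. No statistical test between samples was run. The members and lists were chosen with earlier results of these data known. The genes named are the 7 members, genes that share their summits, and listed genes with a conservative summit; the listed genes named as having none were added. Recurring 50-mers were counted over the whole assembly, and coding sequences were aligned with MAFFT 7.526 in place of proteins, which were not used here. The counting of summits in promoter windows was checked on simulated summits at known positions, all of which were counted in their windows. Windows that run to the 3' end of a gene were not part of this check. Alternatives were each replicate alone, the other lists, an IDR of 0.05, overlap of at least 1 bp, and 500 or 2000 bp upstream. In the promoter count, the 500 bp setting also ran to 500 bp downstream. All ranked regions past the threshold were added after the data were seen. Python 3.11.15, NumPy 2.4.6, pandas 2.3.3 and matplotlib 3.10.9 were used.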

Additional observations from a re-analysis of the deposited data

How the results depend on the processing

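The genes with a conservative summit were the same under peak overlap, 500 or 2000 bp upstream, and all ranked regions past the threshold. They were 2 by promoter (vit-2 and rme-2) and 3 with gene bodies (also vit-6). For the promoter count, the 500 bp setting also reached 500 bp downstream of the 5' end. An IDR of 0.05 added vit-4 with gene bodies (4 genes). The other thresholded list gave 1 gene by promoter (rme-2) and 2 with gene bodies. With either replicate alone the count was 0 by promoter, and 0 to 1 with gene bodies (vit-6 in replicate 2's list). The 63 regions became 51 to 52 with 1 replicate alone and 61 to 67 otherwise. Their median signal of 27.6 was 27.6 to 28.2 under the other settings and 17.3 to 17.5 in the replicates' own lists, whose nuclear medians were 13.99 and 14.7. The cause was not tested. No paired analysis was possible because there is 1 group. Depth is unknown, so a gene without a summit is not shown to lack binding.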
